A study of Mus musculus with 34 samples.

Results

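The genes described here encode the protein kinases of the MAP kinase cascade in mouse CD4 T cells, and the data are binding sites of the transcription factors BATF, IRF4 and Foxp3 near them. Peaks of the 4 deposited peak tables were included where the nearest protein-coding gene body, at 0 bp if the peak's midpoint lay inside it and at most 100000 bp away, was that of a numbered gene of the Map4k, Map3k, Map2k, Mapk or Mapkapk families. This rule took 211 of 41612 peaks, 82 of 16109 in the first BATF table, 52 of 9973 in the second, 31 of 6396 for Foxp3 and 46 of 9134 for IRF4. Peaks of different tables that overlapped by at least 1 bp were joined into 103 sites. Of the 46 such genes in the annotation, 37 had at least 1 peak. The rule used position only and no binding value.

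A MAP kinase cascade is a relay in which a MAP3 kinase phosphorylates a MAP2 kinase, which in turn phosphorylates a MAP kinase, and MAP4 kinases act upstream of the first step. The ERK branch carries signals from the T cell receptor through Ras, and the JNK and p38 branches respond to stress, cytokines and costimulation. MAPKAP kinases are phosphorylated by p38 or ERK and act on RNA-binding proteins and other targets. The branches end on AP-1 factors, the family to which BATF belongs. BATF has no transactivation domain of its own, pairs with JUN proteins and binds DNA together with IRF4 at composite sites. Foxp3 is the transcription factor that defines regulatory T (Treg) cells.

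Chromatin immunoprecipitation and sequencing was done on cells freshly sorted out of spleen and lymph nodes; the C57BL6/J mice carried Foxp3-IRES-hCD2, a reporter that puts human CD2 on cells that express Foxp3. BATF and IRF4 were measured in CD4+hCD2+ Treg cells and CD4+hCD2- conventional T (Tconv) cells, with 2 and 4 libraries in each group. Foxp3 was measured with 2 libraries each in effector Treg cells (CCR7loCD62Llo), central Treg cells (CCR7hiCD62LhiCD44lo), bulk wild-type Treg cells and Treg cells of Foxp3-IRES-hCD2.Batf-/- mice, in which Batf is deleted. BATF was further measured in CD4+hCD2+GFP- Treg cells of mice with 1 Foxp3R397W-IRES-hCD2 allele and 1 Foxp3-IRES-GFP allele, and in controls with Foxp3WT-IRES-hCD2 in place of the mutant allele, with 2 libraries each. Both of these groups share the Foxp3-IRES-GFP allele, and GFP-positive cells were left out by the sort. Neither ages nor the number of animals behind a library are given in the sources used here, so a p-value below measures the spread between libraries, which may be technical.

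The deposited values are reads in a peak multiplied by 1 scale factor per library, and are called normalised reads here. The first BATF table held 1377509 to 2280493 reads a library, the second 144319 to 1009580, IRF4 libraries 162580 to 336969, and Foxp3 libraries 164740 to 393310 over 7 of the 8. The Batf deletion cannot be checked in these tables, which hold binding and not transcripts. At marker genes, 21 of 23 BATF peaks at the Treg genes Foxp3, Ikzf2, Ctla4 and Il2ra were higher in Treg than in Tconv cells. At 5 B cell and 5 myeloid genes Foxp3 had 0 peaks, and BATF and IRF4 had 3 and 2 each. Of these, 1 B cell peak was higher in Treg cells for either factor, and 1 myeloid peak for BATF. In the R397W comparison 1 of 3 myeloid and 0 of 2 B cell peaks were lower for BATF. The part of such cells in the results was not tested. In these bulk libraries a lower share of cells with binding and less binding per cell cannot be told apart.

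Every tier of the cascade had peaks. The 5 Map4k genes had 36 peaks at 18 sites, 14 of 18 Map3k genes had 89 peaks at 45 sites, 6 of 7 Map2k genes had 24 peaks at 10 sites, 9 of 13 Mapk genes had 46 peaks at 22 sites, and the 3 Mapkapk genes had 16 peaks at 8 sites. BATF peaks of the first table were found at all 37 genes with a peak, IRF4 peaks at 29 and Foxp3 peaks at 17. Map3k5, which encodes the stress-responsive kinase ASK1, and Map4k4 had 19 peaks each, both at 9 sites. They were followed by Map3k8 (Tpl2, upstream of ERK) with 14 peaks at 5 sites, Map3k1 (MEKK1) with 13 at 8 sites and Map3k14 (NIK, the kinase of the noncanonical NF-kappaB pathway) with 10 at 5 sites. The midpoint lay inside the gene body in 129 of the 211 peaks, and 26 lay more than 10000 bp outside it. The farthest, at 98860 bp from Map4k3, held at most 5.13 normalised reads in any library.

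**Figure D1:**
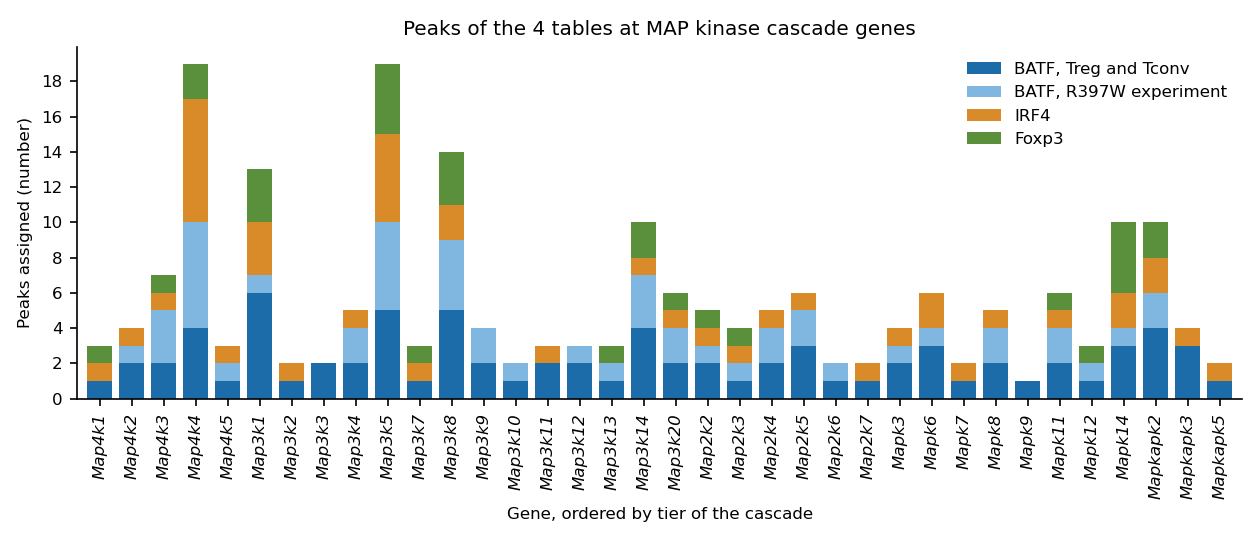
Number of peaks (vertical axis) assigned to genes with a peak (horizontal axis, ordered from Map4k to Mapkapk), stacked by table. Map4k4 and Map3k5 have the tallest bars at 19 peaks each, and the green segments are Foxp3 peaks.

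Foxp3 peaks at these genes lay mostly where BATF also bound. Of the 31 Foxp3 peaks, 17 (54.8%) overlapped a BATF and an IRF4 peak, against 35.6% of all Foxp3 peaks. A further 7 (22.6%, against 16.8%) overlapped a BATF peak alone, 1 (3.23%, against 4.1%) an IRF4 peak alone, and 6 (19.4%, against 43.4%) neither. A BATF peak of either BATF table was counted here, and the second table also covers R397W libraries. With the first BATF table alone, 21 of the 31 overlapped a BATF peak (67.7%, against 48.2% of all Foxp3 peaks). These are shares of called peaks and were not tested.

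BATF peaks lay on many promoters of the cascade. RefSeq promoter windows (GRCm38.p6, 250 bases before to 50 bases after a start) were at hand for 37 of the 46 genes and numbered 50. A BATF peak of the first table touched 30 of these windows (60.0%, against 24.8% of all 32851 windows), an IRF4 peak 10 (20.0%, against 10.3%) and a Foxp3 peak 0 (against 1.99%, so that 0 of 50 is near the share of all windows). The AP-1 motif TGANTCA, searched on both strands, was found in the 250 bases before the start in 2 of the 30 BATF-touched windows (6.67%), in 3.54% of all BATF-touched windows and in 6.75% of all windows. The other motifs searched there were TGANTCA with GAAA within 10 bases (1 of 30, against 0.848% of all BATF-touched windows), a pair of GAAA with 2 free bases between them (0 of 30, against 2.48%) and the forkhead motif TGTTTAC (0 of 30, against 2.00%), each on both strands and free to overlap. A match is a description of the letters and not a binding site.

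The 2 BATF-touched promoters with TGANTCA, and the 2 of those without it that had the highest BATF values, are shown to let both kinds be read side by side. The 250 bases before the start are printed on the gene's strand, 5′ to 3′, with the TGANTCA match in capitals. Map3k10 (chr7:27674582-27674831, minus strand) has it at -218 to -212 from the start, and Map2k6 (chr11:110398852-110399101, plus strand) at -232 to -226. Map3k7 (chr4:31963857-31964106, plus strand) and Mapkapk5 (chr5:121545893-121546142, minus strand) hold no match in this window.
Map3k10: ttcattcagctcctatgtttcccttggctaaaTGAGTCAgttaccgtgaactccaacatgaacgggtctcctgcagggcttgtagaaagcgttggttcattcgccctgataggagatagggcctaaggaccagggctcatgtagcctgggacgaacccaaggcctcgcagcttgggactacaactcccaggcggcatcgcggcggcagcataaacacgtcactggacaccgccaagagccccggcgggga
Map2k6: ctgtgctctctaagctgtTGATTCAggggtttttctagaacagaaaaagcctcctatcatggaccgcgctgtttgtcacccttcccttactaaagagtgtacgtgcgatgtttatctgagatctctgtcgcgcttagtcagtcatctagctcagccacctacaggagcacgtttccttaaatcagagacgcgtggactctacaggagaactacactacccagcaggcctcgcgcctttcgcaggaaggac
Map3k7: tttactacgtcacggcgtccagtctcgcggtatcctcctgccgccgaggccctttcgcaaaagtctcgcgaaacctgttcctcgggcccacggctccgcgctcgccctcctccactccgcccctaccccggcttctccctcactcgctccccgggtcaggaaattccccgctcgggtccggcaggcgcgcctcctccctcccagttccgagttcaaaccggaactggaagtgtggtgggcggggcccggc
Mapkapk5: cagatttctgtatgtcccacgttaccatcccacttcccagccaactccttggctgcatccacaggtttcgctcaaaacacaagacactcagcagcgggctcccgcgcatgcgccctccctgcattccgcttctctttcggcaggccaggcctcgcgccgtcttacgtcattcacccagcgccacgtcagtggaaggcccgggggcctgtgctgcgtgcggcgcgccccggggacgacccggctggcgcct
The mean BATF value at the promoter of Map3k10, a mixed-lineage kinase, was 132 normalised reads in Treg and 135 in Tconv cells, and at Map2k6, a kinase of p38, it was 63.8 and 66.4. At Map3k7, which encodes TAK1, it was 242 and 308, and at Mapkapk5 238 and 219. The latter pair was chosen for its high values, so the levels of the pairs are not compared.

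BATF binding to the cascade was compared between Treg and Tconv cells with limma over all peaks of the table, calling a peak at an adjusted p under 0.05. Of the 82 peaks, 16 were higher in Treg cells (19.5%, against 14.9% of all peaks) and 6 were lower (7.32%, against 4.79%), at 17 genes. The median log2 fold change was 0.15, against -0.03 over all peaks. The median hides a split by position, which is seen in the plot of change against distance.

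**Figure D2:**
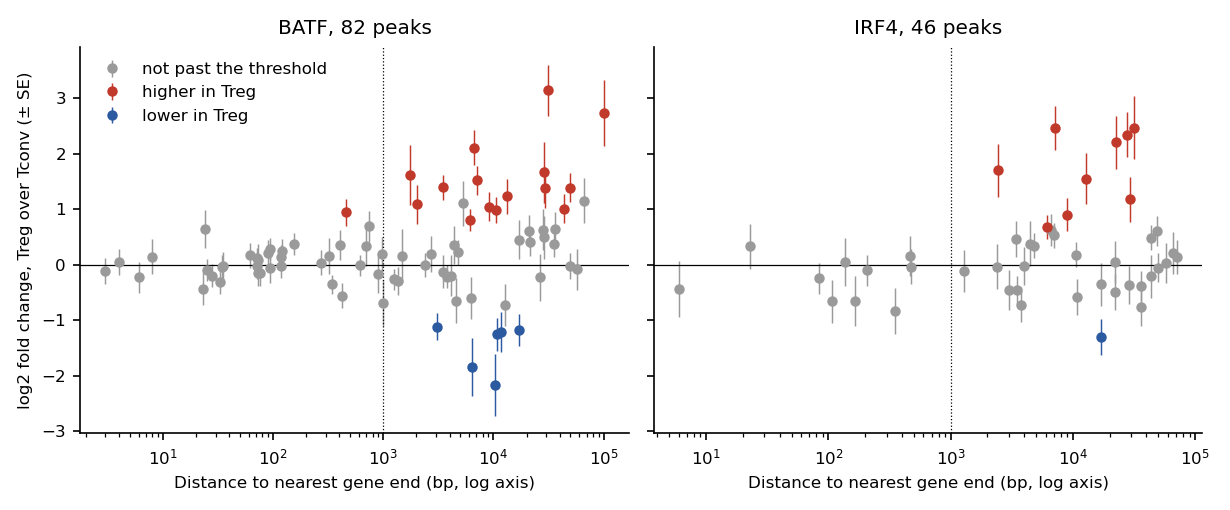
Log2 fold change of Treg over Tconv cells with its standard error (vertical axis) for the 82 BATF and 46 IRF4 peaks, by distance of the midpoint to the nearest end of the gene body (horizontal log axis); the dotted line marks 1000 bp. Left of it 1 BATF peak and 0 IRF4 peaks are coloured as past the threshold; right of it 21 BATF and 10 IRF4 peaks are.

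Few BATF peaks near gene ends passed the threshold. Within 1000 bp of a gene end lay 35 BATF peaks, of which 29 belonged to genes with a known start and all 29 were within 1000 bp of it. Of the 35, 1 was called (2.86%, against 5.02% of all such peaks), with a median log2 fold change of 0.04. The BATF peaks touching the promoter windows above also numbered 29 but are a different set. Some lie farther than 1000 bp from a gene end, and 1 at a Map4k1 start is not assigned to the cascade. Of these 29, 0 were called by limma, edgeR or DESeq2, and 2 had an unadjusted p under 0.05. Over all promoter windows limma called 271 of 6394 BATF peaks (4.24%), and nothing about the cascade's promoters is read from the 0. The log2 fold changes of the 29 peaks on its promoter windows ran from -0.60 to 0.70. Among the 47 peaks farther away, 15 were higher and 6 lower (44.7% called, against 31.7% of all such peaks). The 1000 bp limit was set after the values were seen.

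In Mapk14, which encodes p38 alpha, the peak at chr17:28698168-28698568 held 248 and 156 in Treg against 54.6 and 84.3 in Tconv cells (log2 fold change 1.52 ± 0.26, adjusted p = 0.000406). The error of a log2 fold change is its standard error throughout. Its neighbour at chr17:28697258-28697658 held 258 and 279 against 127 and 184 (0.81 ± 0.20, adjusted p = 0.0074). Both groups were separate at both peaks. Map2k3, a kinase of p38, had 1 BATF peak, at chr11:60935309-60935709, with 335 and 218 in Treg and 118 and 87.8 in Tconv cells (1.40 ± 0.23, adjusted p = 0.000242). Of 8 Mapkapk peaks, whose genes encode kinases downstream of p38 or ERK, 2 were higher and the other 6 did not pass. Mapkapk3 held 137 and 100.51 against 53.4 and 59.3 (1.05, adjusted p = 0.0073). Upstream of Mapkapk2, 13177 bp outside the body, 72.6 and 85.8 stood against 37.2 and 29.3 (1.23, adjusted p = 0.0103).

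In the Map4k, Map3k and Map2k tiers the calls went both ways. Near Map2k4, which activates JNK and p38, a peak 6650 bp outside the body held 112 and 98.3 in Treg against 22.1 and 24.99 in Tconv cells (log2 fold change 2.11 ± 0.32, adjusted p = 0.000129). Map2k5, the kinase of ERK5, held both directions within 1 gene body. Its peak at chr9:63281062-63281462 had 35.2 and 56.5 against 9.29 and 3.57 (2.73 ± 0.60, adjusted p = 0.00283), while the one at chr9:63173998-63174398 had 5.18 and 18.1 against 41.8 and 54.3 (-2.16 ± 0.56, adjusted p = 0.00994). The 2 Map3k1 peaks with a call were higher in Treg cells, by 1.39 at 49099 bp outside the body (172 and 152 against 46.5 and 80.7) and by 0.99 inside it (168 and 236 against 84.8 and 118). For Map3k8, 2 peaks just outside the body were higher (0.95 and 1.62), and so was 1 peak each at Map4k3 (1.01), Mapk6 (1.09) and Mapk8 (1.67).

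Lower in Treg cells were peaks in Map3k4 (MEKK4; 34.2 and 40.7 in Treg against 87.1 and 93.5 in Tconv cells, log2 fold change -1.25 ± 0.30, adjusted p = 0.00518), Map3k14 (-1.84), Map3k13 (-1.21), Map4k4 (-1.18), the Map2k5 peak above and a peak 3042 bp outside Map2k2, which encodes MEK2 (-1.11). None of the 18 Mapk and 8 Mapkapk peaks was lower by limma, edgeR or DESeq2, and none had an unadjusted p under 0.05 in that direction. Of all BATF peaks limma called only 4.79% lower, so nothing is read from this absence, and a difference between tiers was not tested. Of the 22 calls, 6 passed under every alternative that kept the peak. Among them were Map2k4, Map2k3, the first Mapk14 peak, the outer Map3k1 peak and Map3k4. The outer Map3k1 peak was in 12 alternatives and Map2k4 in 13. Without Treg replicate 1, 8 of the 22 were lost (adjusted p 0.068 to 0.185), without Treg replicate 2, 9 (0.056 to 0.206), without Tconv replicate 1, 6 (0.051 to 0.116) and without Tconv replicate 2, 4 (0.054 to 0.254). Quantile normalisation moved the split of calls over all peaks from 2395 higher and 772 lower to 2086 and 1291, and that of the 82 peaks from 16 and 6 to 13 and 6. Beside these values, BATF was higher in Treg cells at 18 of 18 peaks of the effector Treg genes Klrg1, Tigit and Il10 and lower at 10 of 36 peaks of Satb1, Lef1 and Ccr7. The part of the Treg cells' makeup in the calls above was not tested.

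IRF4 binding gave 9 peaks higher in Treg cells of 46 (19.6%, against 15.8% of all peaks) and 1 lower (2.17%, against 8.39%), with a median log2 fold change of 0.04 against -0.05. The calls lay in Map4k (4 higher and 1 lower of 11), Mapk (3 of 10) and Mapkapk genes (2 of 4). None of 16 Map3k and 5 Map2k peaks was called by limma, edgeR or DESeq2, while 4 of these 21 had an unadjusted p under 0.05. A difference between tiers was not tested.

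Map4k4, whose product acts upstream of JNK, carried both directions. At chr1:40033286-40033686, 7176 bp outside the gene body, the 4 Treg libraries held 26.7, 30.1, 34.2 and 31.5 normalised reads and the 4 Tconv libraries 4.04, 7.66, 4.51 and 3.43. The groups were far apart, with a log2 fold change of 2.46 ± 0.40 (adjusted p = 0.000102). At chr1:40053864-40054264, 27754 bp outside, Treg libraries held 24.0, 31.7, 36.3 and 30.7 and Tconv libraries 3.23, 4.87, 5.41 and 8 (2.35 ± 0.40, adjusted p = 0.000158). Inside the gene, at chr1:39917784-39918184, the order was turned: 10.1, 23.8, 17.1 and 18.8 in Treg against 33.9, 32.7, 72.2 and 41.1 in Tconv cells (-1.30 ± 0.32, adjusted p = 0.00414). BATF was lower at this inner site as well, at 57.0 and 40.7 against 134 and 90.7. The first BATF table has no peak at the outer 2 sites, but the second lists the same Treg and Tconv libraries there. They held 50.6 and 16.4 against 3.52 and 7.03 at the nearer site, and 49.4 and 32.8 against 0 and 0 at the farther one, as values with no test.

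Map4k1, which encodes HPK1, a negative regulator of T cell receptor signalling, held 20.3, 17.4, 25.6 and 21.3 against 4.04, 5.57, 2.71 and 16.0 (1.70 ± 0.47, adjusted p = 0.00959). Smaller calls were the outer Mapkapk2 peak (1.55), Map4k5 (1.18), Mapkapk3 (0.90) and the second Mapk14 peak (0.68). The groups did not overlap in 10 of the 46 peaks (21.7%, against 23.3% of all IRF4 peaks).

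Of these 10 calls, 6 passed under every alternative that kept the peak, among them the 3 at Map4k4 and the one at Map4k1. The farther outer Map4k4 site and Map4k1 were in 16 alternatives, the nearer outer and the inner Map4k4 site in 17. Leaving out 1 library lost at most 4 calls, without Treg replicate 4 (adjusted p 0.051 to 0.092). Among 35 sites with a peak for both factors in the first BATF and the IRF4 table, BATF was higher in Treg cells at 11 and IRF4 at 4, and the 4 were among the 11 (36.4% of them). The 4 were 100% of the sites higher for IRF4. Among the 4 was the outer Mapkapk2 site, where the BATF and IRF4 peaks did not overlap each other. They were joined through a Foxp3 peak that overlaps both. Over all 6945 overlapping IRF4 peaks, 903 of 945 peaks higher in Treg cells (95.6%) lay on a higher BATF peak. These 903 were 52.8% of the 1709 IRF4 peaks on a higher BATF peak, and the 1709 were 24.6% of the 6945. IRF4 was higher at 8 of 10 peaks of the effector Treg genes and lower at 2 of 14 of Satb1, Lef1 and Ccr7, and the part of this in the calls was not tested.

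**Figure D3:**
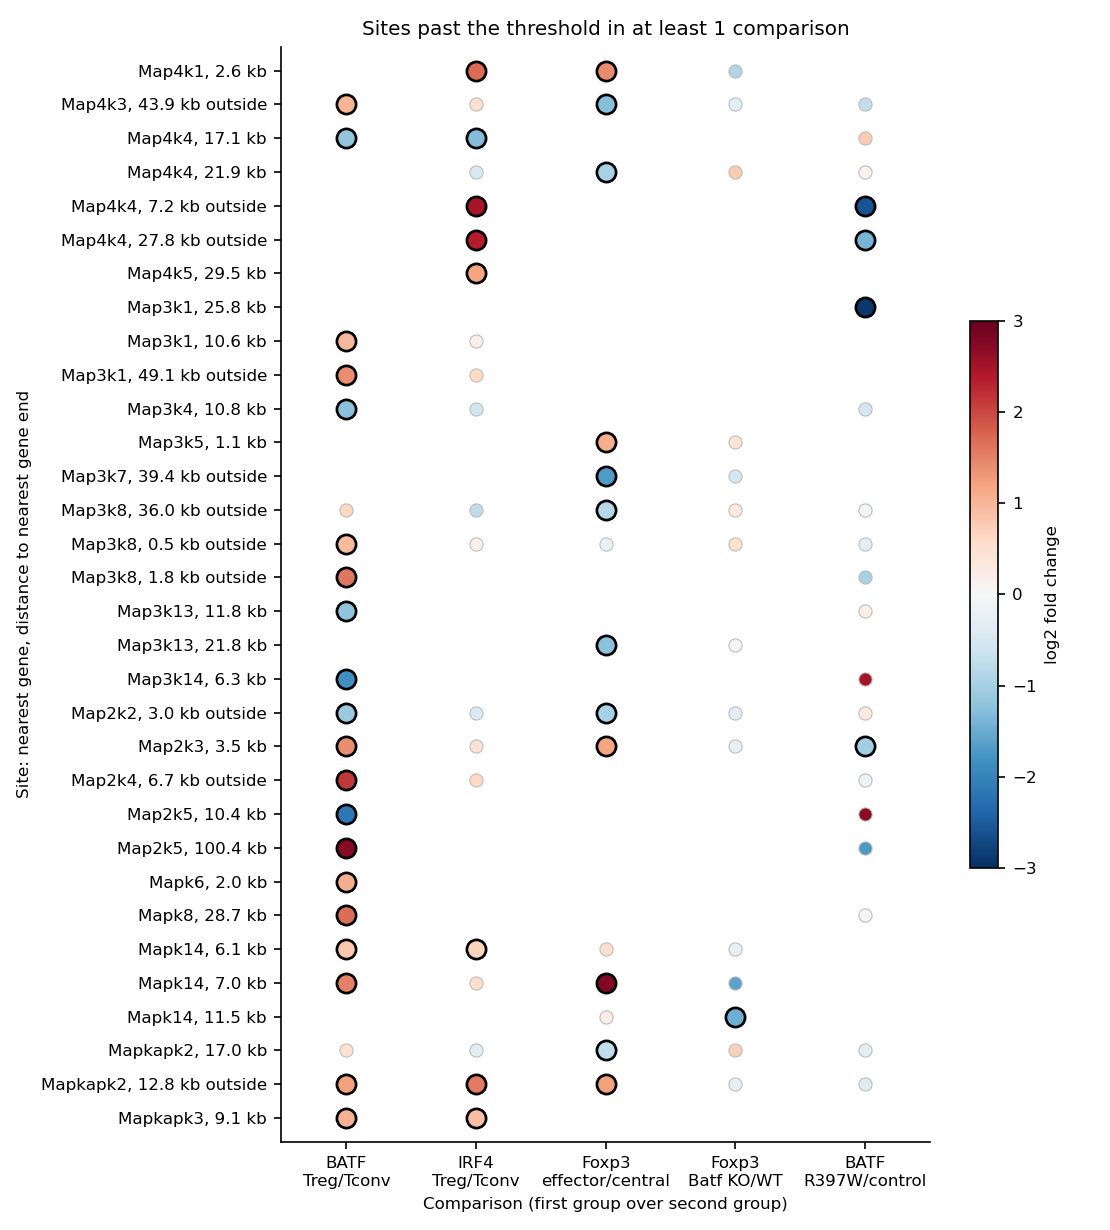
Log2 fold change (colour, limited to ±3) at the sites named in the text that were past the threshold in at least 1 of the 5 comparisons (columns, first group over second); rows are named by gene and distance to the nearest gene end. Large circles with a black rim passed the threshold and small ones did not; a blank means no peak in that table. The rows Map2k3, 3.5 kb, and Mapkapk2, 12.8 kb outside, have 3 black rims each.

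Across the 5 comparisons 35 of the 103 sites had a call, 21 in 1 comparison, 11 in 2, 2 in 3 and 1 in 4. Those with 3 were Map2k3 and the outer Mapkapk2 site, which joins BATF and IRF4 peaks that do not overlap each other. Foxp3 binding to the cascade was split between effector and central Treg cells. Of 31 peaks 7 were higher in effector cells (22.6%, against 15% of all peaks) and 7 were lower (22.6%, against 10.8%), at 12 genes. By tier, 3 of 8 Mapk peaks were higher by limma and by edgeR, and 0 by DESeq2. Lower were 0 of the 8 by limma, edgeR or DESeq2 (1 at an unadjusted p under 0.05). In Map3k and Map4k genes limma called 2 higher and 5 lower of 19. A difference between tiers was not tested.

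Higher in effector cells was first of all Mapk14, at the site that was higher for BATF in Treg cells. Its Foxp3 peak held 40.5 and 40.9 in effector against 1.33 and 14.8 in central cells (log2 fold change 2.78 ± 0.53, adjusted p = 0.000312), and the lower central value is 1 read. The groups were separate, and the bulk Treg libraries stood above both subsets, at 75.8 and 67.7. The outer Mapkapk2 site (43.1 and 45.6 against 22.6 and 14.8), Map4k1 (34.2 and 30.0 against 13.3 and 9.64), Map2k3 (49.4 and 32.3 against 18.6 and 15.6) and Map3k5 (30.4 and 33.5 against 13.3 and 15.6) were higher as well, with log2 fold changes of 1.23, 1.42, 1.18 and 1.09.

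Among the sites lower in effector cells was one of Map4k3. Map4k3, whose product GLK acts in T cell receptor signalling, had it 43876 bp outside its body with 11.4 and 19.6 in effector against 33.3 and 43.0 in central cells (-1.28 ± 0.37, adjusted p = 0.0104). BATF was higher in Treg than in Tconv cells at the same site, and bulk Treg cells held more Foxp3 reads there than either subset, 82.9 and 66.8. Map4k4 had 35.5 and 36.9 against 71.9 and 71.2 inside the body (-0.96 ± 0.29, adjusted p = 0.0152), at a site other than those called for IRF4. Map3k13 (-1.24), Map3k8 (-0.86, 36000 bp outside), Map2k2 (-0.97) and an inner Mapkapk2 site (-0.74) were lower as well. Near Map3k7, 39419 bp outside the body, effector cells held 17.7 and 5.77 against 39.96 and 31.1 (-1.69 ± 0.53, adjusted p = 0.0193). The assignment of sites this far out rests on distance alone, and with a limit of 10000 bp to a gene body 4 lower calls were counted.

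None of the 14 Foxp3 calls passed under every alternative. DESeq2 on 7 libraries lost 13 (adjusted p 0.058 to 0.262), among them the Mapk14 site (0.121). Without central replicate 2, 11 were lost (0.063 to 0.285). Without central replicate 1, effector replicate 1 or effector replicate 2, the losses were 8 (0.052 to 0.220), 8 (0.077 to 0.339) and 7 (0.063 to 0.336). On reads of 7 libraries edgeR called the same numbers, 7 and 7, and DESeq2 1 and 0. At effector genes 7 of 7 Foxp3 peaks were higher in effector cells and at Satb1, Lef1 and Ccr7 12 of 15 were lower. Among 21 sites with a BATF and a Foxp3 peak, 8 were higher for BATF in Treg cells and 5 higher for Foxp3 in effector cells, and the 5 were among the 8 (62.5%). The 62.5% is a share of the 8, and the 5 were 100% of the sites higher for Foxp3. Over all 3081 overlapping Foxp3 peaks, 424 of 491 higher Foxp3 peaks (86.4%) lay on a higher BATF peak. These 424 were 43.8% of the 967 Foxp3 peaks on a higher BATF peak, and the 967 were 31.4% of the 3081.

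**Figure D4:**
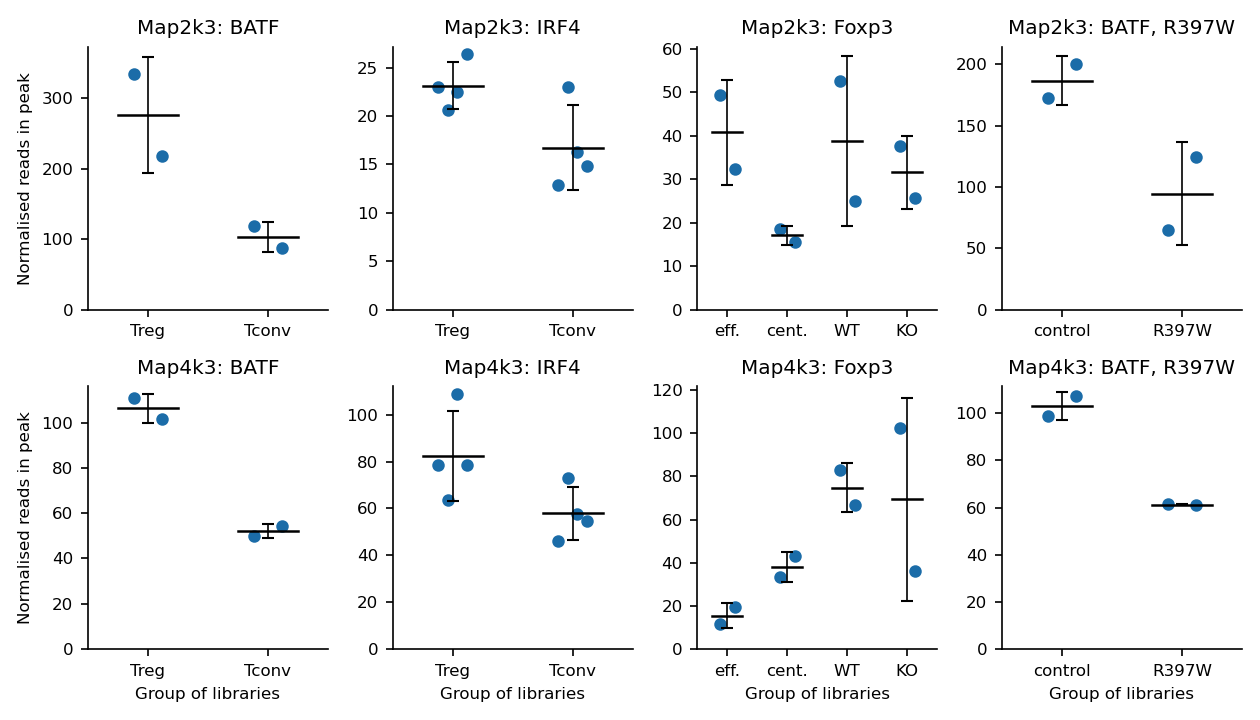
Normalised reads per library (points) with mean (line) and SD (bars) at the Map2k3 site (top) and the Map4k3 site 43.9 kb outside the gene body (bottom), in the 4 tables; eff. and cent. are effector and central Treg cells, WT and KO wild-type and Batf knockout Treg cells. At both sites the groups overlap for IRF4 and for knockout against wild type, and do not overlap in the other comparisons; Foxp3 is higher in effector cells at Map2k3 and lower at Map4k3.

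Foxp3 binding differed between Batf knockout and wild-type Treg cells at 1 of the 31 peaks, which was lower in the knockout (3.23%, against 3.91% of all peaks), and 0 were higher (against 0.547%; 4 at an unadjusted p under 0.05 by limma, the one tool run here). The called peak lies inside Mapk14 at chr17:28702609-28703009. Wild-type effector libraries held 17.7 and 16.1 there and central libraries 12.0 and 17.1, so the bulk wild-type libraries stood above both subsets. Knockout libraries held 22.4 and 9.01 and wild-type libraries 37.4 and 45.9 (log2 fold change -1.47 ± 0.41, adjusted p = 0.0359). The groups did not overlap, but the call was lost without wild-type replicate 1 (adjusted p = 0.125), wild-type replicate 2 (0.260) or knockout replicate 2 (0.302), and in a fit of the 4 compared libraries alone (0.0546). That fit called 1 other peak, the Mapk14 one at chr17:28698168-28698568 (adjusted p = 0.00784). Without knockout replicate 1 there were 4 lower peaks in place of 1.

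The other Mapk14 peaks missed the threshold in the fit of 8 libraries. The one at chr17:28698168-28698568, called for effector cells, held 31.5 and 16.7 in knockout against 75.8 and 67.7 in wild-type cells (-1.60 ± 0.53), and the one at chr17:28701140-28701540 30.5 and 9.01 against 34.4 and 57.6 (-1.36 ± 0.45), both at an adjusted p of 0.0915. The strongest Mapk14 peak held 91.5 and 96.5 against 89.99 and 136, and its groups overlapped. With the called one, 4 of 8 Mapk peaks were lower in the knockout at an unadjusted p under 0.05, against 667 of all 6396 peaks (10.4%). The tier was looked at after its values were seen. The called peak and those at chr17:28698168-28698568 and chr17:28701140-28701540 are neighbours inside Mapk14, so the 4 are not independent. Nothing about the tier is read from this share. At chr17:28701140-28701540 bulk wild-type libraries also stood above effector (19.0 and 28.3) and central libraries (9.32 and 15.6).

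**Figure D5:**
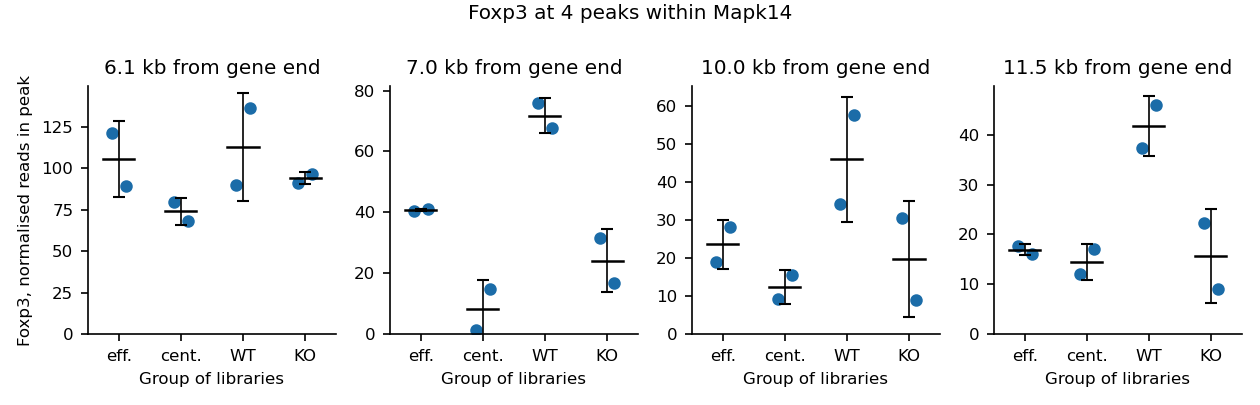
Foxp3 normalised reads per library (points) with mean (line) and SD (bars) at the 4 peaks within Mapk14, from the first to the last along the genome, in effector, central, wild-type and Batf knockout Treg cells. The panel 11.5 kb from the gene end is the one called for the knockout, and that at 7.0 kb the one called for effector against central cells.

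BATF binding in R397W Treg cells was lower than in control Treg cells at 6 of 52 peaks (11.5%, against 8.04% of all peaks) and higher at 0 (against 0.612%; 0 by edgeR and DESeq2 as well, and 4 at an unadjusted p under 0.05). Sites called for IRF4 in Treg cells were among them. At the nearer outer Map4k4 site, R397W libraries held 12.0 and 9.01 and control libraries 72.5 and 62.3 (log2 fold change -2.58 ± 0.47, adjusted p = 0.00493), and at the farther one 20.52 and 22.2 against 50.9 and 65.7 (-1.40 ± 0.41, adjusted p = 0.0408). At both the groups were separate by a wide margin.

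Map2k3 and Map3k1 were called as well. Map2k3 held 65.0 and 124 in R397W against 173 and 201 in control cells (-1.04 ± 0.28, adjusted p = 0.0301). A Map3k1 site at chr13:111772051-111772451 held 1.71 and 9.01 against 41.6 and 34.6 (-2.90 ± 0.74, adjusted p = 0.0222), where the lowest value is 1 read. Of 23 sites with an IRF4 peak and a peak of the second BATF table, 5 were higher for IRF4 in Treg cells and 5 lower for BATF in R397W cells, and 4 sites were in both (80% of each). Over all overlapping peaks, the 455 IRF4 peaks in both were 49.1% of those higher in Treg cells and 80.5% of those on a lower R397W peak. The Map2k4 peak, among the clearest Treg differences for BATF, held 56.4 and 39.5 against 49.4 and 55.3 (-0.14 ± 0.35), with overlapping groups. None of the 6 sites lower for BATF in Treg than in Tconv cells was called in the mutant by limma, edgeR or DESeq2. Over all peaks limma called 0.612% higher and 8.04% lower, so nothing is read from this absence. Of the 6 sites, 2 had an unadjusted p under 0.05 by limma, 3 by edgeR and 0 by DESeq2. The log2 fold changes were 2.71 at Map2k5, 2.51 at Map3k14, 0.76 at Map4k4, 0.27 at Map2k2, 0.23 at Map3k13 and -0.54 at Map3k4. Map2k5 held 8.55 and 10.4 in R397W against 1.54 and 0.00 in control cells (2.71 ± 1.19, adjusted p = 0.184). Map3k14 held 10.3 and 28.4 in R397W against 9.25 and 0.00 in control cells (2.51 ± 1.09, adjusted p = 0.178). None of the 11 peaks on promoter windows was called by limma, edgeR or DESeq2, and 0 had an unadjusted p under 0.05; over all promoter windows limma called 36 of 2995 (1.2%).

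No R397W call passed under every alternative. The second control column has the fewest reads, 144319, and without it all 6 were lost (adjusted p 0.068 to 0.370). Without the first control column or R397W replicate 1 the losses were 4 each (0.052 to 0.187 and 0.073 to 0.388), and without R397W replicate 2 they were 2 (0.054 to 0.083). DESeq2 called 1 peak lower, at Map4k4, and edgeR 6. At the effector Treg genes 6 of 13 BATF peaks were lower in R397W cells and at Satb1, Lef1 and Ccr7 0 of 17, and the part of the cells' makeup in these calls was not tested.

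The other genes of the pathway give the surroundings. For BATF, 67 of 77 listed genes had 173 peaks, of which 37 were higher and 5 lower in Treg cells (21.4% and 2.89%, against 14.9% and 4.79% of all peaks). Inhibitors of the cascade, the Dusp phosphatases and the Sprouty and Spred proteins, held 16 higher and 0 lower of 46 peaks, with a median log2 fold change of 0.41. A peak 51924 bp outside Dusp4, whose product is a phosphatase of MAP kinases, had 165 ± 5.28 against 6.61 ± 2.77 (SD, n = 2 each; log2 fold change 4.499). Raf kinases and scaffolds held 7 higher and 0 lower of 16, with a median log2 fold change of 0.14.

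For IRF4, 15 of 103 pathway peaks were higher and 3 lower (14.6% and 2.91%, against 15.8% and 8.39% of all peaks), and Dusp4 was among the higher ones, by 2.87. For Foxp3, 11 of 57 were higher and 12 lower in effector cells (19.3% and 21.1%, against 15% and 10.8%), and Ras and its exchange factors held 2 higher and 8 lower of 17, led by Rras2 (-1.62) and Rasgrp1 (-2.21). In the Batf knockout 1 of 57 was higher, at Mef2a, and 1 lower, at Dusp1 (1.75% each, against 0.547% and 3.91%). In R397W cells 8 of 92 BATF peaks were lower and 1 higher (8.70% and 1.09%, near the 8.04% and 0.612% of all peaks), and the scaffold gene Spag9 held 5.71 ± 5.65 against 77.3 ± 37.4 (SD, n = 2 each; log2 fold change -3.78).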

How the data were processed

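Signal values (reads in a peak times a scale factor) were deposited by the authors in 4 peak tables for 24 immunoprecipitated libraries; 10 input samples have no column there and were not used. Per the submitters' processing notes, the tools were DiffBind 3.12.0, edgeR 3.38.4, MACS2 2.2.7.1 and Bowtie2 2.4.1 and the build mm10; their roles are not given in the sources used here. The scale factor per library makes a change common to most peaks invisible. Values of 23 libraries' columns were whole multiples of 1 step within 0.01 and gave whole reads (100% of values); 1 wild-type Foxp3 library was kept out of count tests. The R397W control columns are known by group only. The Treg and Tconv libraries of both BATF tables are the same (402 common intervals, 1 pair of reads differing, by 1 read).

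Peaks were assigned by midpoint to RefSeq gene bodies (GRCm38.p6, the assembly of mm10). Whether deposited coordinates count from 0 or 1 is not settled. Exons and introns were not used here. Each comparison was fitted over all peaks of its table with limma 3.58.1 (R 4.3.3) on log2(value + 1), letting the spread depend on the mean level; both Foxp3 comparisons share a fit of 8 libraries. Tests were two-sided with Benjamini-Hochberg adjustment over all peaks of the table, and folds understate the change of low peaks. The procedure was also run on simulated counts with a spread common to all peaks, and nothing about the calls is read from that run. Alternatives were a pseudocount of 8, a filter at the 25th percentile, quantile normalisation, no trend, edgeR 4.0.16 and DESeq2 1.42.0 on whole reads, a replicate block, single libraries left out, and other assignment or overlap rules.

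The members, lists and tests were chosen with earlier results of these data known. Named peaks were those past the threshold (the 15 with the smallest p where more passed, and 6 more for BATF added after their values were seen), the strongest peak of preset genes and the 5 genes with most peaks; pathway and marker genes are illustrated by their smallest p. Some results are not reported here by name; counts cover all members.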

Additional observations from a re-analysis of the deposited data

Results flagged for a closer look

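At 2 of 46 groups of 4 IRF4 libraries at the named peaks, 1 library stood far from the other 3; chance gives about 1 in 20. At a Map3k5 site, Tconv replicate 1 held 79.2 against 27.2 to 32.5. At the Mapk14 site called for Foxp3 in effector cells, Treg replicate 3 held 94.0 against 117 to 121.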

How the results depend on the processing

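Counts of calls are given as higher and lower. For BATF in Treg against Tconv cells (16 and 6), the 25th percentile filter gave 10 and 3, and leaving out 1 library 10 to 14 and 4 to 5. For IRF4 (9 and 1), leaving out 1 library gave 5 to 11 and 1 to 2. For Foxp3 in effector against central cells (7 and 7), assignment within 10 kb gave 4 lower, no trend 3 lower, DESeq2 on 7 libraries 1 and 0, and leaving out 1 library 3 to 5 and 0 to 2. For the Batf knockout (0 and 1), a pseudocount of 8 gave 3 lower, the filter, quantile normalisation and no trend 0 each, and leaving out 1 library 0 to 4. For R397W (0 and 6), quantile normalisation gave 2 lower, no trend 1, DESeq2 1, and leaving out 1 library 0 to 2 and 0 to 4. Where an arm then had 1 library, it was assumed to vary like the others. The filter leaves fewer of the peaks (58 of 82 for BATF); the cause of the other changes was not tested. No call reversed under the alternatives run.

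The replicate block gave 18 and 7 for BATF, 10 and 2 for IRF4, 7 and 6 for Foxp3 in effector against central cells and 0 and 1 for the knockout; the R397W columns share no numbers. The deviations of same-numbered libraries correlated at 0.0882 for BATF, 0.0346 to 0.132 for IRF4, 0.139 for the subsets and 0.0761 for the knockout, so the numbers were not taken as pairs; IRF4 Treg replicate 3 correlated best with Tconv replicate 4. Quantile normalisation moved the median of all peaks from -0.03 to -0.13 for BATF and from -0.02 to 0.13 for R397W. Count tests of the knockout were not run, since whole reads were not recovered from the values of 1 wild-type library. Midpoint assignment was kept after it was compared with whole peaks; assigning whole peaks, tried after seeing the data together with count tests on 7 Foxp3 libraries, gave 80, 51, 31 and 47 peaks and the same counts of calls. The lowest depth was 144319 reads in peaks, in an R397W control column; which calls depth limits was not tested.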
